A study of Mus musculus with 19 samples.

Results

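The mRNA levels of the interferon-inducible GTPases were followed in blood leukocytes of DBA/2 and B6 mice over 9 weeks after the administration of CAWS. The members were chosen by name: every probe of the array whose gene name in the files, or an older name of the same gene, was Gbp2, Gbp3, Gbp4, Gbp6, Igtp, Iigp1, Irgm1 or Ifi47. That gave 11 of the 41174 probes, for 9 of the 27591 genes on the array. The ninth gene comes from a change of name, since the probe that the files call Gbp6 belongs to the transcript now named Gbp7, and the probe that they call Mpa2l belongs to Gbp6. Both are given here under the present names. Of the 11 probes, 10 were among the 22939 probes tested, that is, well above the array background in at least 2 of the 18 samples. The probe left out is the third of the 3 probes of Irgm1, which was not well above background in any of the 18 samples. Gbp6 was well above background in 7 of the 18 samples, and each of the other 9 tested probes in all 18. Gbp6 has a close copy in Gbp10, and a probe may take up RNA of both.

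CAWS is the water-soluble mannoprotein and β-glucan fraction that the yeast Candida albicans releases into its culture medium, and its intraperitoneal injection on consecutive days causes a vasculitis of the coronary arteries and the aorta. The mice were males of the inbred strains B6 and DBA/2, no genetic modification is named, and the labels give no age. Samples taken right after the last injection are called week 0 (0 w), and the other mice were those still alive at week 2, week 4, week 8 and week 9. All groups, week 0 included, had received CAWS, so no group of untreated mice was measured and each change is relative to freshly injected mice of the same strain. There were 2 samples in each of the 5 DBA/2 groups and in B6 mice at week 0, week 4 and week 8, and 1 sample in B6 mice at week 2 and at week 9. Values are log2 signals relative to the 75th percentile of the array, so that 0 is the level of that percentile and a difference of 1 is a 2-fold difference. The median difference between the 2 samples of a group over 11536 probes was 0.122 to 0.151 on the log2 scale in DBA/2 mice and 0.0909 to 0.102 in B6 mice. It was 0.0985 between 2 arrays of the same RNA, from B6 mice at week 0. The samples of a group in B6 mice thus differed about as little as repeated arrays of 1 RNA, and the p values below measure only the spread between these samples, which may be technical. Between 33.9% and 51.4% of probes were well above background on an array, and 1 array, DBA/2 week 9 replicate 2, had 1187 spots marked as outliers, against 64 to 180 on the others. The B6 samples of week 0 and week 8 stood apart from all others by RNA of hepatocyte genes, whose values are given with those of Iigp1.

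The guanylate-binding proteins (Gbp2, Gbp3, Gbp4, Gbp6 and Gbp7) and the immunity-related GTPases (Igtp, Iigp1, Irgm1 and Ifi47) are large GTPases that cells make in response to interferons, above all interferon-γ from NK cells and T cells. Interferon-γ acts through a receptor (Ifngr1, Ifngr2) and the kinases Jak1 and Jak2 to switch on genes with GAS elements in their promoters, while the transcription factor Irf1, itself induced, binds the interferon-stimulated response element (ISRE). The induced GTPases attack the vacuoles in which intracellular bacteria and parasites live. Irgm1 and Igtp belong to the regulatory immunity-related GTPases, which hold effectors such as Iigp1 in check on the cell's own membranes, and several guanylate-binding proteins promote inflammasome activation.

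Because the members are known as interferon targets, the stretches upstream of their start sites are shown first, with the letters of both elements marked. RefSeq windows of 300 bases, from 250 before to 50 after the start site on GRCm38.p6, were matched for 6 of the 9 genes, with 7 windows in all. Both strands were searched for GAS as TTCNNNGAA and for the ISRE core as GAAANNGAAA. Of 32851 windows of that length over all genes, 8.3% held the GAS letters, 3.44% the ISRE core and 0.454% both. An ISRE core was found in 5 of the 6 genes, GAS in 2 and both in 2, namely Gbp7 and Igtp. The 120 bases before the start site lie at chr3:142620543-142620662 (plus strand) for Gbp2, chr3:142559924-142560043 (plus) for the first start site of Gbp3, chr3:142530216-142530335 (plus) for Gbp7, chr11:49076467-49076586 (plus) for Ifi47, chr11:58199436-58199555 (plus) for Igtp and chr11:48871421-48871540 (minus) for Irgm1. They are written 5′ to 3′ on the strand of the gene, and capitals mark an ISRE core on either strand or a GAS.
Gbp2: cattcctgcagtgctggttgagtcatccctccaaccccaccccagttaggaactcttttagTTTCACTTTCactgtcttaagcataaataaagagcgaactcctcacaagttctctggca
Gbp3: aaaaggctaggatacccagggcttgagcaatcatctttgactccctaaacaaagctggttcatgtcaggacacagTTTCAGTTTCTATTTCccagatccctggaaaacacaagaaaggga
Gbp7: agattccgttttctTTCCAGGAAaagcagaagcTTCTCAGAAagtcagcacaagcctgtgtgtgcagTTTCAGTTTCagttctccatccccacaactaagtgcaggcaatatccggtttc
Igtp: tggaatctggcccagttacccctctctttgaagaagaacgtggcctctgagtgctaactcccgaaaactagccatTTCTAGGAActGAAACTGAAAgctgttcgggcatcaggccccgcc
Irgm1: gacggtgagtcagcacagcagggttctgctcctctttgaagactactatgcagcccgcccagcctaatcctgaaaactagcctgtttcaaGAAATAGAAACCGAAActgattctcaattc
Ifi47: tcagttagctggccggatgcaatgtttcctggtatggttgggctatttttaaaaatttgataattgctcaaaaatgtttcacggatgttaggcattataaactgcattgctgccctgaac

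In Gbp2, Gbp3 and Gbp7 the ISRE core lies in the reverse orientation, as TTTCNNTTTC, and in Igtp and Irgm1 in the forward one. In Gbp3 and in Irgm1, 2 overlapping cores share letters, at -45 and -39 in Gbp3 and at -30 and -24 in Irgm1, counted from the start site. Single cores begin at -59 in Gbp2, -53 in Gbp7 and -34 in Igtp. The GAS letters begin at -106 and -87 in Gbp7 and at -45 in Igtp, beside its ISRE core. Neither set of letters was found in the window of Ifi47 or in that of the second start site of Gbp3. These are matches of letters, not sites of binding.

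The mRNA of most of the GTPases rose after week 0 in DBA/2 mice, and 7 of the 9 stood highest at week 8, the exceptions being Gbp4 and Gbp6. Higher levels than at week 0 were called for 8 of the 9 genes at week 2, week 4 and week 8 and for 9 at week 9, with limma and an adjusted p under 0.05. Of all tested probes 7.9% were called higher at week 2, 7.58% at week 4, 10% at week 8 and 13.4% at week 9. The median change of the 9 genes was 0.80, 0.66, 1.67 and 0.97 at week 2, week 4, week 8 and week 9, beside medians of -0.05, -0.10, -0.18 and -0.03 over all tested probes. All samples of each later week lay above both samples of week 0 for 8 genes at week 2 and for 9 genes at week 4, week 8 and week 9, as they did for 22.7%, 21.5%, 21.6% and 28.0% of all tested probes at these weeks. In bulk RNA, fewer cells of a type and less RNA per cell cannot be told apart, here and in every comparison that follows.

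**Figure D1:**
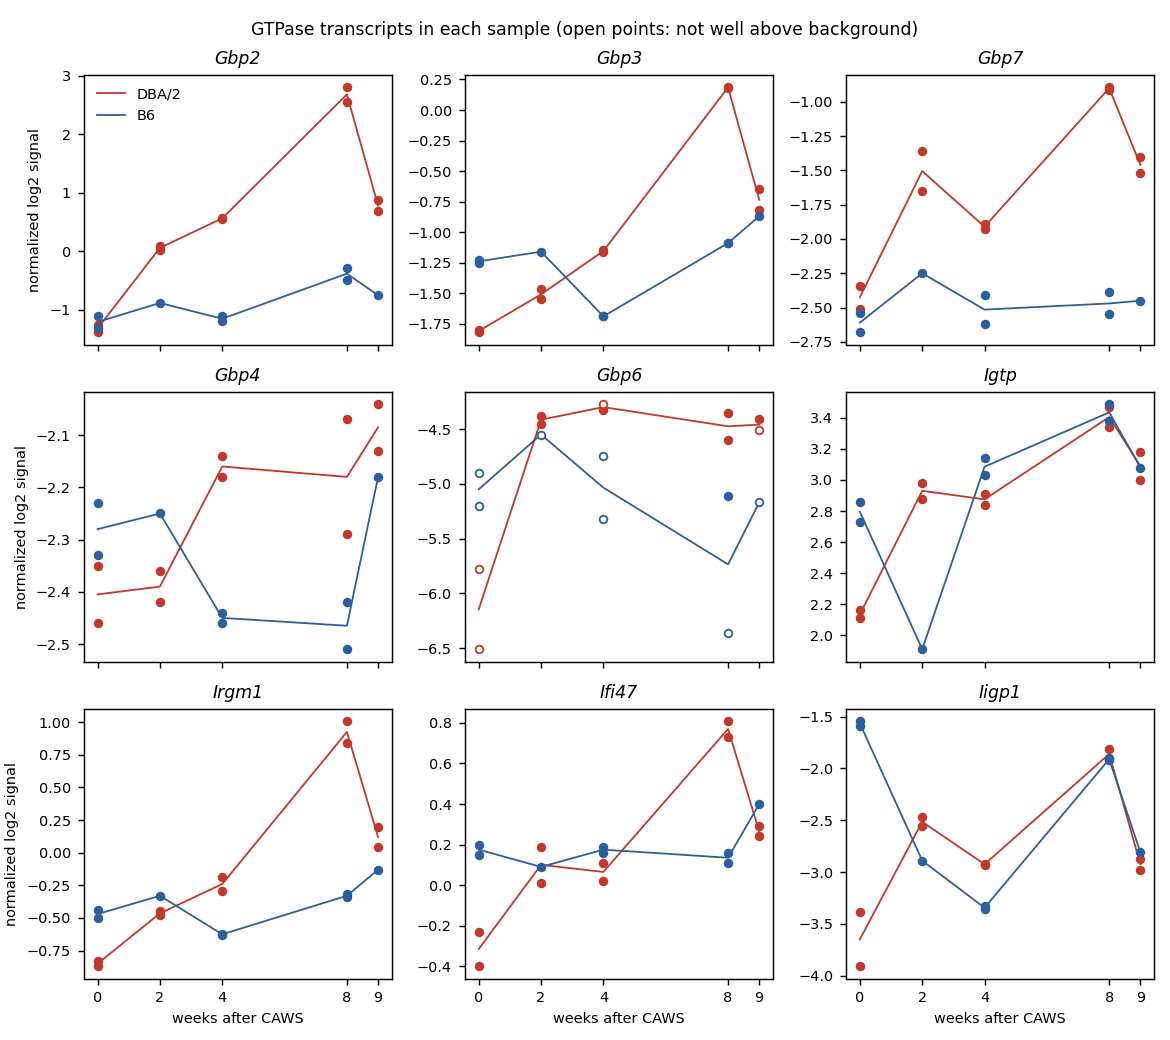
Normalized log2 signal of the 9 GTPases (vertical axis, 1 panel a gene with its own scale, relative to the 75th percentile of the array) against weeks after CAWS administration (horizontal axis), with 1 point a sample (open points were not well above background) and a line through the group means of DBA/2 and B6 mice. Gbp2 in DBA/2 mice goes from -1.38 and -1.25 at week 0 to 2.55 and 2.81 at week 8, while its B6 samples lie between -1.30 and -0.28.

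Gbp2, a guanylate-binding protein that gathers on pathogen vacuoles, changed the most (probe at chr3:142575141-142575200, plus strand, mm8). Its DBA/2 levels were -1.25 and -1.38 at week 0, 0.09 and 0.03 at week 2, 0.57 and 0.56 at week 4, 2.81 and 2.55 at week 8, and 0.87 and 0.69 at week 9. No sample of one week overlapped with those of another. The change from week 0 was 1.38 ± 0.12 on the log2 scale (SE, n = 2 against 2) at week 2 with an adjusted p of 1.66e-04 by limma, 1.88 ± 0.12 at week 4 (1.13e-05), 3.99 ± 0.12 at week 8 (1.01e-07) and 2.09 ± 0.12 at week 9 (5.57e-06). At week 8 this was a 15.9-fold rise.

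Gbp3, on the same chromosome as Gbp2 (probe at chr3:142510494-142510553, plus strand, mm8), followed with a smaller and later rise. Its samples stood at -1.80 and -1.82 at week 0, -1.47 and -1.55 at week 2, -1.15 and -1.16 at week 4, 0.18 and 0.19 at week 8, and -0.65 and -0.82 at week 9. The order of the weeks was therefore that of Gbp2, again without overlap. Gbp3 was 0.30 ± 0.07 higher at week 2 (adjusted p = 0.0248), 0.66 ± 0.07 at week 4 (4.09e-04), 2.00 ± 0.07 or 3.99-fold at week 8 (2.09e-07) and 1.08 ± 0.07 at week 9 (1.56e-05). The week 2 call was lost when any 1 of the 4 samples compared was left out.

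Gbp7 (probe at chr3:142483801-142483860, plus strand, mm8; called Gbp6 in the files) rose early, paused and peaked at week 8. It was at -2.34 and -2.51 at week 0, -1.36 and -1.65 at week 2, -1.93 and -1.89 at week 4, -0.89 and -0.91 at week 8, and -1.40 and -1.52 at week 9. The samples of week 4 were thus below those of week 2, unlike in Gbp2 and Gbp3. The changes were 0.92 ± 0.12 at week 2 (adjusted p = 0.00131), 0.51 ± 0.12 at week 4 (0.0216), 1.53 ± 0.12 or 2.88-fold at week 8 (2.49e-05) and 0.97 ± 0.12 at week 9 (4.29e-04).

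Gbp4 and Gbp6 differed from these 3. Gbp4 (probe at chr5:105358363-105358422, minus strand, mm8) stayed between -2.46 and -2.04 in DBA/2 mice, with -2.35 and -2.46 at week 0 and -2.07 and -2.29 at week 8. Its changes of 0.02 ± 0.09 at week 2, 0.25 ± 0.09 at week 4 and 0.23 ± 0.09 at week 8 did not pass the test (adjusted p = 0.959, 0.115 and 0.113), and that at week 9, 0.32 ± 0.09, did (0.0289). Gbp6 (probe at chr5:105455567-105455626, minus strand, mm8; called Mpa2l in the files) was at the edge of detection, and neither sample of DBA/2 mice at week 0 was well above background. It was well above background in both samples at week 2 and week 8 and in 1 of 2 at week 4 and at week 9. Relative to the lowest signal well above background on the week 0 arrays, the later levels were 1.36-fold at week 2 and 1.48-fold at week 4. They were 1.31-fold at week 8 and 1.32-fold at week 9. The adjusted p from the limma fit were 0.0142, 0.0105, 0.0107 and 0.00938. These ratios are no strict bounds, since Gbp6 at week 4 replicate 2 (-4.27) lay above that signal and was still not well above background. With normexp background correction its changes were 0.17, 0.09, 0.02 and 1.14, none of them called. That correction was run with an offset of 50 added to each signal, which by itself pulls changes of dim probes toward 0. The DBA/2 samples of Gbp6 lay between -4.60 and -4.27 at all 4 later weeks, with no peak at week 8. With Gbp6 at these ratios the medians over the 9 genes become 0.45 at week 2, 0.61 at week 4, 1.53 at week 8 and 0.95 at week 9.

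Among the immunity-related GTPases, Irgm1, the regulator that acts on host membranes and in autophagy, came closest to the guanylate-binding proteins. By its main probe (chr11:48708990-48709049, minus strand, mm8) it was at -0.83 and -0.87 at week 0, -0.45 and -0.48 at week 2, -0.19 and -0.29 at week 4, 1.01 and 0.84 at week 8, and 0.20 and 0.04 at week 9. All later weeks lay above week 0, and week 8 lay above all others. The rise was 0.39 ± 0.09 at week 2 (adjusted p = 0.015), 0.61 ± 0.09 at week 4 (0.00163), 1.77 ± 0.09 or 3.42-fold at week 8 (1.00e-06) and 0.97 ± 0.09 at week 9 (6.11e-05). A second probe of Irgm1 (chr11:48709340-48709399), dimmer but well above background in all samples, gave 2.02 at week 8.

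Igtp (Irgm3), the other regulator, had the brightest probe of the set, with signals of 916 to 6300, although brightness cannot be compared between probes (chr11:58023620-58023679, plus strand, mm8). Among DBA/2 samples it was at 2.16 and 2.11 at week 0, 2.98 and 2.88 at week 2, 2.91 and 2.84 at week 4, 3.47 and 3.34 at week 8, and 3.18 and 3.00 at week 9. The week 0 samples were the lowest and the week 8 samples the highest, with week 2 and week 4 overlapping. The changes were 0.80 ± 0.10 at week 2 (adjusted p = 7.93e-04), 0.74 ± 0.10 at week 4 (9.71e-04), 1.27 ± 0.10 or 2.41-fold at week 8 (1.79e-05) and 0.95 ± 0.10 at week 9 (1.23e-04).

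Ifi47 (Irg47; probe at chr11:48940094-48940153, plus strand, mm8) moved least of the 4 at week 4, week 8 and week 9. It was at -0.23 and -0.40 at week 0, 0.19 and 0.01 at week 2, 0.11 and 0.02 at week 4, 0.81 and 0.73 at week 8, and 0.29 and 0.24 at week 9. Its samples at week 2 and week 4 overlapped, those at week 0 were the lowest and those at week 8 the highest. The changes were 0.42 ± 0.09 at week 2 (adjusted p = 0.0139), 0.38 ± 0.09 at week 4 (0.0216), 1.09 ± 0.09 or 2.13-fold at week 8 (3.29e-05) and 0.58 ± 0.09 at week 9 (0.00136).

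Iigp1 (Irga6), an effector that loads onto parasite vacuoles, lies on another chromosome than the 3 other immunity-related GTPases (probe at chr18:60517868-60517927, plus strand, mm8). Its DBA/2 levels were -3.39 and -3.91 at week 0, -2.47 and -2.56 at week 2, -2.93 and -2.92 at week 4, -1.81 and -1.91 at week 8, and -2.87 and -2.98 at week 9. Like Gbp7 it stood lower at week 4 than at week 2. It rose by 1.14 ± 0.14 at week 2 (adjusted p = 9.23e-04), 0.73 ± 0.14 at week 4 (0.00832), 1.79 ± 0.14 or 3.46-fold at week 8 (2.24e-05) and 0.73 ± 0.14 at week 9 (0.00437). The samples of week 0 differed more from each other than those of any other week.

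**Figure D2:**
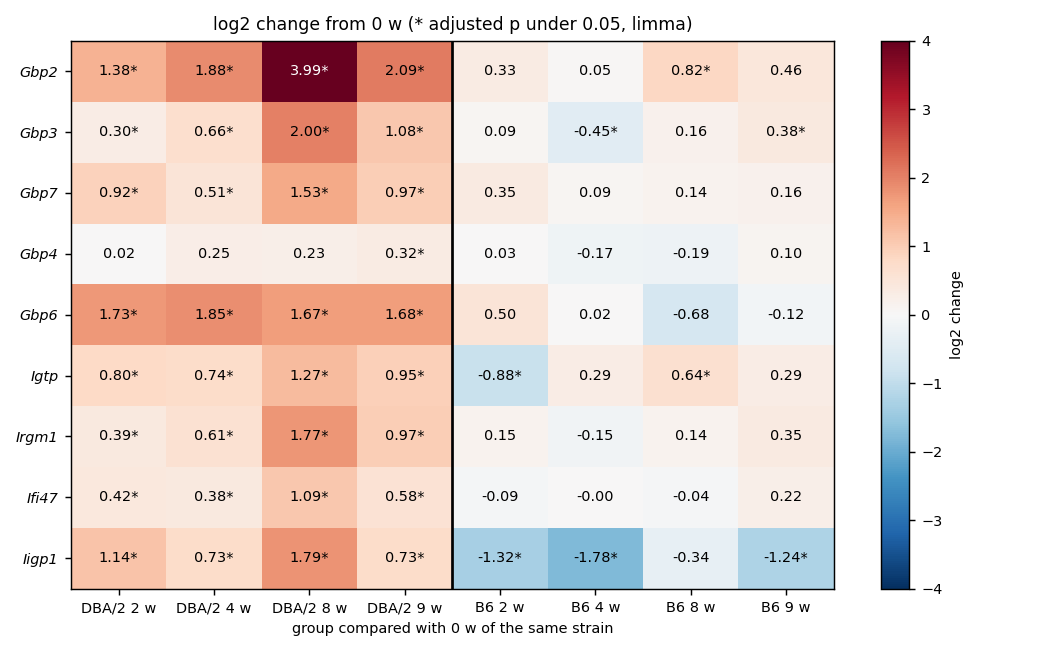
Heat map of the log2 change from week 0 of each GTPase (rows) at week 2, week 4, week 8 and week 9 in DBA/2 mice (left) and B6 mice (right), with the value in each field and an asterisk where the adjusted p by limma was under 0.05. Gbp2 reaches 3.99 at week 8 in DBA/2 mice and Iigp1 is at -1.78 at week 4 in B6 mice, while the fields of Gbp6 are fitted values against a level not well above background and are not measured sizes.

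Leaving out 1 sample ended some of the smaller weekly calls in DBA/2 mice, namely those of Gbp3, Gbp6, Irgm1 and Ifi47 at week 2, of Gbp6, Gbp7, Ifi47 and Iigp1 at week 4, and of Gbp4 and Gbp6 at week 9. At week 8 the call of Gbp6 alone was lost in this way. The arrays of week 0, week 2, week 4 and week 8 of DBA/2 mice shared a slide for each replicate number, so the change could also be read within a slide. On the 2 slides the change at week 8 was 4.06 and 3.93 for Gbp2, 1.99 and 2.00 for Gbp3, 1.84 and 1.71 for Irgm1, 1.58 and 2.01 for Iigp1, 1.46 and 1.60 for Gbp7, 1.31 and 1.22 for Igtp and 1.04 and 1.14 for Ifi47. These values average to the fitted change by design, so they show only that the rise of these genes was seen on each slide. For week 9 against week 0 in DBA/2 mice no slide holds both weeks, and no other group links their slides. A fit with the slide as a block thus cannot estimate this change, and the week 9 calls remain unchecked against the slides. With normexp background correction, Gbp2 alone was called at week 2 and week 4, and Iigp1 was called at no week (0.80 at week 8, adjusted p = 0.54).

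The step to week 8 and the decline after it were tested after the values had been seen. From week 4 to week 8, 7 of the 9 genes were called higher, where 3.54% of all probes were, and the median step was 1.01 (all probes -0.07). Gbp2 gained 2.11 ± 0.12 (adjusted p = 2.81e-05), Gbp3 1.34 ± 0.07 (2.45e-05), Irgm1 1.17 ± 0.09 (1.68e-04), Iigp1 1.07 ± 0.14 (0.00272), Gbp7 1.01 ± 0.12 (0.00181), Ifi47 0.71 ± 0.09 (0.00246) and Igtp 0.53 ± 0.10 (0.0112). For Gbp4 and Gbp6 the step was -0.02 and -0.18, with adjusted p of 0.951 and 0.88. From week 8 to week 9, 6 genes were called lower (all probes 6.75%), with Gbp2 at -1.90 ± 0.12, Iigp1 at -1.06 ± 0.14, Gbp3 at -0.92 ± 0.07, Irgm1 at -0.80 ± 0.09, Gbp7 at -0.56 ± 0.12 and Ifi47 at -0.50 ± 0.09. For Igtp the decline of -0.31 missed the threshold (adjusted p = 0.0533).

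In B6 mice the same genes changed little, with the exception of Iigp1, Igtp and, at week 8, Gbp2. Over the mean of week 4 and week 8, 3 of the 9 genes passed the test, and 15.0% of all probes did in either direction. The number called was 2 at week 2 (all probes 13.0%), 2 at week 4 (15.7%), 2 at week 8 (21.2%) and 2 at week 9 (9.34%). The count of 2 in 9 at each week is thus not far from the background share.

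Iigp1 fell in B6 mice. Its levels were -1.59 and -1.54 at week 0, -2.89 in the single sample of week 2, -3.33 and -3.36 at week 4, -1.92 and -1.90 at week 8, and -2.81 in the single sample of week 9. Both samples of week 0 lay above all later ones, and those of week 8 came closest. The change was -1.32 ± 0.17 at week 2 (adjusted p = 7.76e-04), -1.78 ± 0.14 at week 4 (5.03e-05), -0.34 ± 0.14 at week 8 (0.124) and -1.24 ± 0.17 at week 9 (0.00202). Over the mean of week 4 and week 8 it was -1.06 ± 0.12 (4.25e-04). The groups of B6 mice with high Iigp1 were also those with RNA of hepatocyte genes: the log2 sum of the 9 hepatocyte markers on the array was 5.23 to 5.26 at week 0 with all 9 detected, 4.32 to 4.41 at week 8 with 8 to 9 detected, and -0.34 to 0.41 in the other B6 samples. All DBA/2 samples lay at -0.63 to 0.53, with 2 to 4 detected. The part of this RNA in the change of Iigp1 was not tested.

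Igtp in B6 mice was at 2.86 and 2.73 at week 0, 1.91 at week 2, 3.14 and 3.03 at week 4, 3.49 and 3.38 at week 8, and 3.08 at week 9. It went down at week 2 by -0.88 ± 0.12 (adjusted p = 8.56e-04, a single sample at week 2) and was higher at week 8 by 0.64 ± 0.10 (0.00131). The sample of week 2 also stood apart by platelet markers, with a log2 sum of 6.85 against 8.26 to 8.74 in the other B6 samples. The part of this in the change of Igtp was not tested. Gbp2 was at -1.11 and -1.30 at week 0, -0.88 at week 2, -1.11 and -1.19 at week 4, -0.28 and -0.48 at week 8, and -0.75 at week 9, and was called higher at week 8, by 0.82 ± 0.12 (0.0011). Over week 4 and week 8 the changes were 0.47 ± 0.08 for Igtp (0.00492) and 0.44 ± 0.10 for Gbp2 (0.0203). Without B6 week 0 replicate 2 both of these calls were lost, at 0.41 for Igtp and 0.34 for Gbp2, and that of Gbp2 also without B6 week 4 replicate 1 (0.42) or B6 week 8 replicate 1 (0.39). Gbp3 was called lower at week 4, by -0.45 ± 0.07 (0.00393), and higher in the single sample of week 9, by 0.38 ± 0.09 (0.0319). The second probe of Irgm1 was called higher at week 9 (0.53, adjusted p = 0.0375), where its main probe was at 0.35 (0.0798).

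The strain difference, DBA/2 change minus B6 change over the mean of week 4 and week 8, passed the test upward for all 9 genes, against 6.48% of all probes. Its median was 1.20 over the 9 genes, 1.05 over the 8 genes without Gbp6 and -0.04 over all probes. With a filter of 9 of the 18 samples well above background, Gbp6 was left out and the other 8 were called. Of all probes 1502 were then called upward and 1681 downward. Within DBA/2 mice 8 of the 9 genes were called higher over that mean (all probes 9.8%). Gbp2 rose by 2.94 ± 0.10 or 7.66-fold in DBA/2 mice and by 0.44 in B6 mice, a difference of 2.50 ± 0.15 (adjusted p = 1.49e-05). For Iigp1 the difference of 2.32 ± 0.17 (5.10e-05) came from a rise of 1.26 ± 0.12 in DBA/2 mice and the fall of -1.06 in B6 mice. Gbp3 rose by 1.33 ± 0.06 in DBA/2 mice and was at -0.15 in B6 mice (difference 1.47 ± 0.09, 2.06e-05). Irgm1 rose by 1.19 ± 0.08 and was at -0.01 (1.20 ± 0.11, 1.28e-04).

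The remaining differences were smaller. They were 0.90 ± 0.15 for Gbp7 (adjusted p = 0.00417), 0.76 ± 0.11 for Ifi47 (0.00224), 0.53 ± 0.12 for Igtp (0.0175) and 0.42 ± 0.11 for Gbp4 (0.0409). Gbp6 had an adjusted p of 0.0175, and no size is given because it was not well above background in B6 mice at week 0 and at week 4. Its mean level at week 4 and week 8 in DBA/2 mice was 1.39-fold the lowest signal well above background on the week 0 arrays. The calls of the last 3 rest on single samples. That of Gbp4 was lost when any of 13 samples was left out (0.36 to 0.48, adjusted p = 0.0578 to 0.156). That of Igtp was lost without B6 week 0 replicate 1, DBA/2 week 0 replicate 1 or DBA/2 week 0 replicate 2 (0.47 to 0.55, adjusted p = 0.0538 to 0.0821), and that of Gbp6 without B6 week 0 replicate 1 or DBA/2 week 0 replicate 2. With the background of the scanner corrected by normexp, the differences of Gbp2 (2.33), Gbp3 (1.21) and Irgm1 (1.06) were called and those of the other 6 were not. The second probe of Irgm1 was not called there either (1.10, adjusted p = 0.0976).

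**Figure D3:**
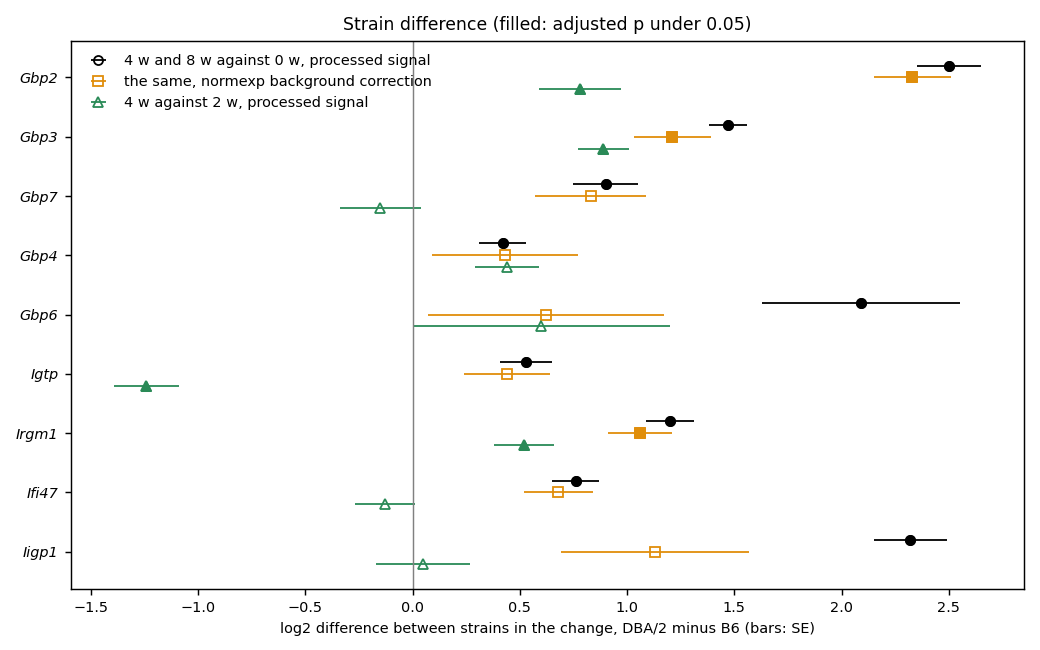
Difference between the strains in the change (log2, DBA/2 minus B6, horizontal axis) for each GTPase (rows), with bars for the SE and filled symbols where the adjusted p was under 0.05. Circles give week 4 and week 8 against week 0, squares the same after normexp background correction, and triangles week 4 against week 2; Gbp2, Gbp3 and Irgm1 are filled and above 0 in all 3, while Iigp1 goes from 2.32 to 1.13 and 0.05, and the values of Gbp6 are fitted from groups partly not above background.

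By week, the strain difference in the change passed the test for 4 of the 9 genes at week 2 (all probes 8.15%), 4 at week 4 (7.38%), 8 at week 8 (7.19%) and 6 at week 9 (6.32%), all upward. Gbp2 and Iigp1 passed at each of the 4 weeks, with 1.05, 1.83, 3.17 and 1.64 for Gbp2 and 2.45, 2.50, 2.14 and 1.97 for Iigp1 at week 2, week 4, week 8 and week 9. The difference of Gbp2 thus peaked at week 8, and that of Iigp1 did not. Igtp passed at week 2 (1.68), week 8 (0.63) and week 9 (0.67), Gbp3 and Irgm1 at week 4 (1.10 and 0.76), week 8 (1.84 and 1.63) and week 9 (0.70 and 0.63), Gbp7 at week 8 (1.39) and week 9 (0.81), Ifi47 at week 2 (0.51) and week 8 (1.13), and Gbp6 at week 8. Since B6 mice at week 2 and at week 9 are 1 sample each, those weeks rest on it. The step from week 2 to week 4, added after the data were seen because it leaves out week 0, differed between the strains for 4 of the 9 genes in either direction, where 19.6% of all probes did. It was higher in DBA/2 mice for Gbp2 (0.78), Gbp3 (0.89) and Irgm1 (0.52) and lower for Igtp (-1.24, where B6 mice rise from a low single sample), and was 0.05 ± 0.22 for Iigp1 (adjusted p = 0.924). This step compares neither strain with week 0.

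Levels were also set side by side week by week, and the genes fell into different patterns. At week 0, 5 of the 9 genes were lower in DBA/2 mice than in B6 mice (all probes 15.4% lower). These were Iigp1, which was 4.24-fold lower (-2.09 ± 0.14, adjusted p = 5.32e-06), Igtp (1.58-fold, -0.66 ± 0.10, 6.90e-04), Gbp3 (1.48-fold, -0.57 ± 0.07, 3.40e-04), Ifi47 (-0.49 ± 0.09, 0.00261) and Irgm1 (-0.38 ± 0.09, 0.00829). Gbp2, at -0.11 ± 0.12, did not pass. The difference in Iigp1 stands beside the hepatocyte RNA of the B6 mice at week 0 given above.

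At week 8, 7 of the 9 genes were higher in DBA/2 mice (all probes 10.4%). Gbp2 was 8.33-fold higher (3.06 ± 0.12), Gbp7 2.97-fold (1.57 ± 0.12), Gbp3 2.42-fold (1.27 ± 0.07) and Irgm1 2.39-fold (1.26 ± 0.09), and Ifi47 was 0.64 ± 0.09 and Gbp4 0.29 ± 0.09 above B6 mice (adjusted p of Gbp4 0.0492). The seventh was Gbp6. Igtp and Iigp1 were instead close in both strains at week 8, at -0.03 ± 0.10 (adjusted p = 0.846) and 0.05 ± 0.14 (0.836). For these, the larger change in DBA/2 mice began from a lower level at week 0. For Gbp2, Gbp3, Gbp7, Irgm1 and Ifi47 the samples of DBA/2 mice at week 8 lay above every B6 sample of any week, as for 12.0% of all tested probes.

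At week 4, 6 of the 9 genes were higher in DBA/2 mice (all probes 19.1%), led by Gbp2 (1.72), Gbp7 (0.60) and Gbp3 (0.53). At week 2, Gbp2 (0.94), Gbp7 (0.74) and Igtp (1.02) were higher and Gbp3 (-0.36) was lower, where 23.9% of all probes differed in either direction. At week 9, Gbp2 (1.52) and Gbp7 (0.99) were higher (all probes 6.33%). Gbp2 and Gbp7 were the 2 genes called higher in DBA/2 mice at each week after week 0. Whether sequence differences between the strains under a probe alter its signal was not tested.

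The members did not move as a block. Over the 18 samples the correlation between genes ranged from 0.088 for Gbp4 and Igtp to 0.982 for Gbp3 and Irgm1, with a median of 0.562 over 36 pairs, of which 24 were above 0.5. These describe samples of 10 groups and are no test. Of the named genes outside the members and the gene lists used here, those whose levels were most like the mean of the members (Pearson r over 18 samples) were Zbp1, a sensor of Z-form nucleic acids (0.934), the nucleoside transporter Slc28a2 (0.927), the transcription factor Cebpb (0.913), Rtf2 (0.910) and H2-Q7 (0.910), a class I molecule with near-identical copies, so its identity is uncertain. In these genes the change over week 4 and week 8 in DBA/2 mice was 1.08, 0.91, 1.52, 0.57 and 0.85 in the same order. The closest of the listed genes outside the members were Irgm2 (0.93), Irf1 (0.921) and the monocyte marker Fcgr4 (0.906).

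Ifng, which encodes interferon-γ, was set beside the GTPases. The DBA/2 samples were at -3.37 and -3.58 at week 0, -3.24 and -3.38 at week 2, -1.57 and -1.80 at week 4, -1.86 and -2.11 at week 8, and -2.63 and -2.70 at week 9. It stood highest at week 4, not at week 8, and at week 2 its change of 0.17 did not pass the test, where 8 of the GTPases were called higher, or Gbp2 alone with normexp background correction. The changes at week 4, week 8 and week 9, 1.79, 1.49 and 0.81, did, and its step from week 4 to week 8 was -0.30, without passing. In B6 mice Ifng was at -2.10 and -2.17 at week 0, -2.34 at week 2, -2.88 and -2.98 at week 4, -2.57 and -2.66 at week 8, and -3.17 at week 9, and was called lower at week 4, week 8 and week 9 (-0.79, -0.48 and -1.04). At week 0 it was 1.34 lower in DBA/2 mice on the log2 scale, and over week 4 and week 8 its strain difference was 2.28.

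Of 9 genes of the interferon-γ pathway, 6 rose and 1 fell over week 4 and week 8 in DBA/2 mice (median 0.34), 3 rose and 3 fell in B6 mice (0.05), and the strain difference was upward for 4 and downward for 1. Of all tested probes, 2248 of 22936 were called higher and 2998 lower in DBA/2 mice, and 1671 and 1774 of 22939 in B6 mice. For the strain difference 1486 of 22936 were called upward (6.48%) and 1543 downward. Irf1 rose by 0.96 in DBA/2 mice and was at -0.05 in B6 mice. Its step from week 4 to week 8 in DBA/2 mice was 0.91, and that of Ifng, given above, was downward without passing. The part of either in the changes of the GTPases was not tested. The receptor chain Ifngr1 rose by 0.59 against 0.05, and the inhibitor Socs1 by 0.34 where it fell by 0.35 in B6 mice. Ifngr2 rose in both strains (0.47 and 0.58), as did Jak2 (0.30 and 0.47), and Jak1 fell in DBA/2 mice (-0.25). Irf8, a factor of the myeloid lineage, was at -0.08 in DBA/2 mice and fell by 0.30 in B6 mice. The phosphatase Ptpn11 was at 0.18 in DBA/2 mice and rose by 0.40 in B6 mice.

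**Figure D4:**
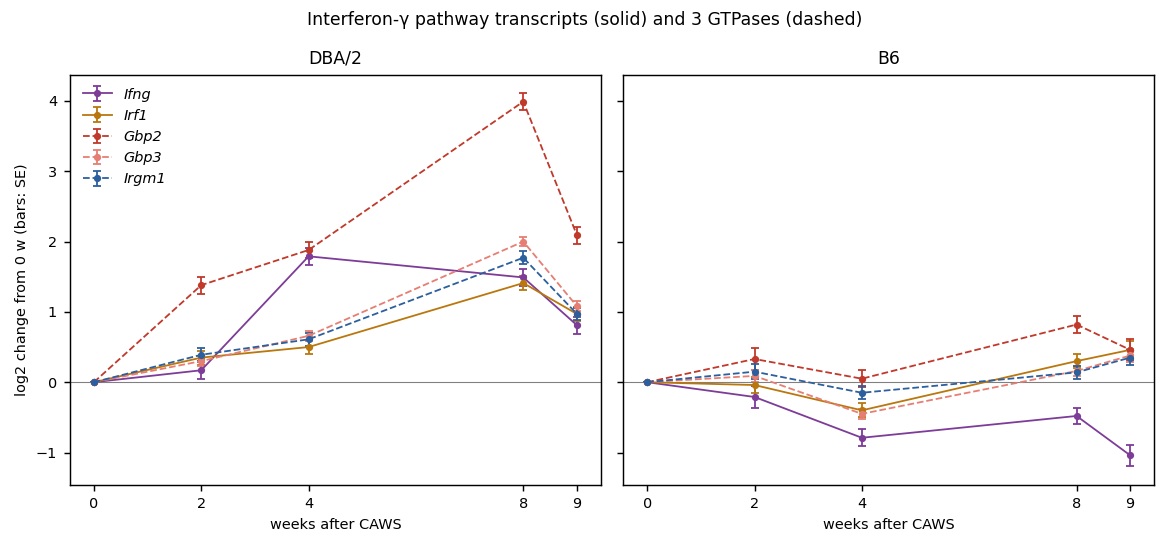
Log2 change from week 0 (vertical axis, bars for the SE) against weeks after CAWS (horizontal axis) of Ifng and Irf1 (solid lines) and of Gbp2, Gbp3 and Irgm1 (dashed lines) in DBA/2 mice (left) and B6 mice (right). Among DBA/2 values Ifng is highest at week 4 (1.79) and lower at week 8 (1.49), where Gbp2 (3.99), Gbp3 (2.00), Irgm1 (1.77) and Irf1 (1.41) are highest.

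Of 14 other interferon-inducible GTPases, 10 were on the array and tested. Of these, 6 rose in DBA/2 mice over week 4 and week 8 (median 0.98), where 9.8% of all tested probes did, and 7 at week 8 (1.48), where 10% did. In B6 mice 1 rose and 1 fell (all probes 15.0% in either direction). The strain difference was upward for 6 (median 1.07), where it was for 6.48% of all probes. The 2 largest fitted differences belonged to Gm12250 (Irgb10, 2.80, adjusted p = 0.00553) and Gbp2b (1.48, 0.181), whose probes were well above background in 5 and 3 of 18 samples only. For Gm12250 these were all DBA/2 samples after week 0, so it entered the count of 6 only through the groups where it was high. Neither value is therefore a measured size. The 2 smallest were -0.21 for Gbp9 and 0.33 for Mx2, neither past the threshold. The others that passed, named after their values were seen, were Tgtp1 (1.27), Gbp8 (1.22), the regulator Irgm2 (1.13), Gbp5 (1.01) and Gvin1 (0.78). RefSeq windows were matched for 5 of the 14 genes (Gbp5, Gbp2b, Irgm2, Tgtp1 and Tgtp2, the last not among the 10 tested), 5 with the ISRE core and 4 with the GAS letters.

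Other targets of interferon-γ moved less uniformly. Of 20 genes 17 were tested, and over week 4 and week 8 in DBA/2 mice 10 rose and 2 fell (median 0.64), where 2248 and 2998 of 22936 probes did. The strain difference was upward for 11 and downward for 1 (median 0.56), where it was for 1486 and 1543 of these probes. The largest differences were those of the chemokine Cxcl9 (2.86, well above background in 3 of 18 samples) and of Fcgr1, the high-affinity IgG receptor of monocytes and macrophages (2.34). That of Cxcl9 was fitted mostly from samples not well above background and is not a measured size. The smallest were those of the class II transactivator Ciita (-0.82, past the threshold) and of the invariant chain Cd74 (-0.13, not past it), which both belong to antigen presentation by class II molecules. Of 18 genes known first as type I interferon targets 16 were tested. In DBA/2 mice 15 rose (median 1.75, all probes 9.8%), and 10 strain differences were upward (median 1.59, all probes 6.48%). The largest were Oas1a (2.49) and Oasl2 (2.48), of the oligoadenylate synthetase family, and the smallest Stat2 (0.21) and Ifit2 (0.25), neither past the threshold. Many genes of both lists, and the GTPases too, are known to respond to both types of interferon.

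Marker RNA of several cell types also changed, not always in the pattern of the GTPases, and the part of these changes in the results was not tested. In DBA/2 mice the log2 sum of 7 monocyte markers was 1.72 to 1.77 at week 0, 2.26 to 2.33 at week 2 and 2.92 to 3.00 at week 4. It was 3.69 to 3.73 at week 8 and 2.84 to 2.94 at week 9, and so peaked at week 8 like most of the GTPases. Over week 4 and week 8, 6 of the 7 were called higher. In B6 mice the sum was 2.41 to 2.47 at week 0, 2.78 at week 2 and 1.99 to 2.06 at week 4. It was 2.99 to 3.00 at week 8 and 2.82 at week 9, with 3 called higher over week 4 and week 8. The sum of 8 neutrophil markers rose in both strains, from 6.73 to 6.74 up to 9.46 to 9.61 in DBA/2 mice and from 5.83 to 5.84 up to 8.74 to 8.75 in B6 mice, and all 8 were called higher in each. T cell markers were lower in DBA/2 mice at week 8 (2.68 to 2.72 after 3.32 to 3.36 at week 0), as were B cell markers (4.14 to 4.22 after 4.73 to 4.82). NK cell markers went from 2.37 to 2.41 at week 0 to 2.90 at week 8 in DBA/2 mice and from 3.09 to 3.1 to 2.61 to 2.64 in B6 mice. For the strain difference, 6 of 7 monocyte markers, 6 of 7 NK cell markers, 5 of 7 tissue macrophage markers, 5 of 9 hepatocyte markers and 4 of 6 erythroid markers were called upward, where 6.48% of all probes were. Of the 9 hepatocyte markers, 7 fell in B6 mice over week 4 and week 8, and 1 rose and 1 fell in DBA/2 mice. Of all tested probes 9.8% were called higher over these weeks in DBA/2 mice, and 1671 of 22939 higher and 1774 lower in B6 mice. Among 7 tested markers of tissue macrophages 5 rose in DBA/2 mice and 5 fell in B6 mice, and Vcam1, the eighth, was never well above background. Of the markers that define blood leukocytes, at least 6 of 7 for T cells, 5 of 6 for B cells and 7 of 7 for NK cells were detected in each sample.

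**Figure D5:**
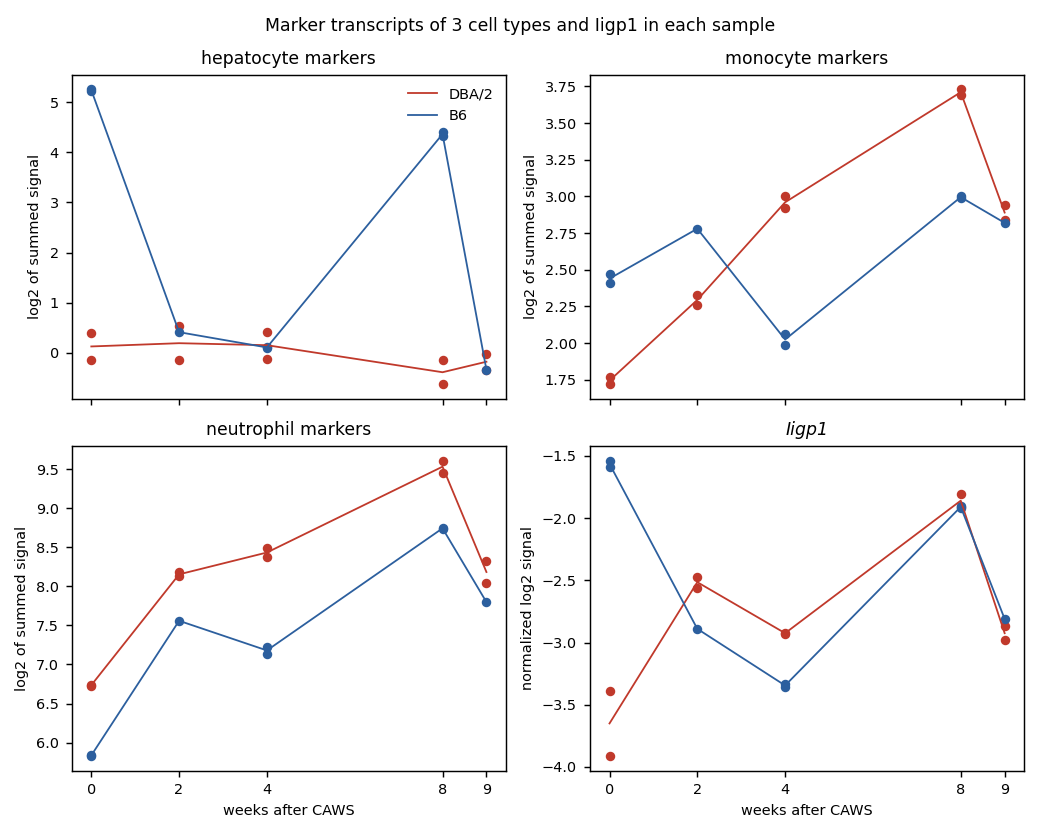
Log2 of the summed signal of hepatocyte, monocyte and neutrophil markers, and the normalized log2 signal of Iigp1 (vertical axes, each with its own scale), in each sample against weeks after CAWS (horizontal axes), with lines through the group means of DBA/2 and B6 mice. Monocyte markers climb to 3.69 and 3.73 in DBA/2 mice at week 8, and hepatocyte markers stand at 5.23 to 5.26 in B6 mice at week 0 and at 4.32 to 4.41 at week 8, the weeks at which Iigp1 is highest in B6 mice.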

How the data were processed

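RNA of blood leukocytes, isolated by LeukoLOCK, was labelled with Cy3 by the authors and hybridized to single-color Agilent whole mouse genome arrays (G4122F). The deposited files hold the output of Feature Extraction 9.5.3.1 (the version in their headers), an intensity per spot that is background-subtracted and detrended within the array but not normalized between arrays. The paper names another release of this software. The series' deposited value table holds the same intensity averaged by probe. Probe coordinates are mm8, as in the files.

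Of 19 arrays, 2 held the same RNA (B6 week 0 replicate 2) and were averaged, which leaves 18 samples in 10 groups. Control and outlier spots were left out, spots of a probe were averaged, and the 75th percentile of log2 signal was subtracted on each array, from 11536 probes that every one of the 19 arrays measured well above background. Genes were named by accession (24496 probes), symbol (6234) or synonym (2386), and 8058 probes kept the name in the files. Where a gene had several probes, the one with the highest mean was used and the others are given where they were called otherwise. All 22939 probes well above background in at least 2 samples were fitted in limma 3.58.1 (R 4.3.3; lmFit and eBayes, a mean per group, 8 residual and 1.37 prior degrees of freedom), with two-sided tests, Benjamini-Hochberg adjustment over all of them and a threshold of 0.05. The script was tested on simulated data. The number of arrays limits the precision.

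The members and gene lists were chosen with earlier results of these data known, so that no count over them is independent support. All members are named, the listed genes of the interferon-γ pathway (1 planned gene is not reported here), the 2 largest and 2 smallest strain differences of each other list, and the 5 other genes most like the members' mean. Alternatives were other scalings and background corrections, other filters, the slide or the replicate number as a block, other probes or spots, 1 strain alone and each sample left out.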

Additional observations from a re-analysis of the deposited data

Results flagged for a closer look

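The change from week 0 over the mean of week 4 and week 8 differed between DBA/2 and B6 mice, by the test of the difference itself (limma, adjusted p under 0.05), in all 9 members. On the log2 scale DBA/2 minus B6 was 2.50 for Gbp2, 2.32 for Iigp1, 1.47 for Gbp3, 1.20 for Irgm1, 0.90 for Gbp7, 0.76 for Ifi47, 0.53 for Igtp and 0.42 for Gbp4. For Gbp6 the fitted value was 2.09, in part from groups not well above background, so that it is not a measured size. The difference of Iigp1 holds its fall of -1.06 in B6 mice, whose week 0 samples also held hepatocyte RNA. It was 1.13 with normexp and 0.05 for week 4 against week 2, not called in either.

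The same test marked other GTPases, at 2.80 for Gm12250 (well above background in 5 of 18 samples), 1.27 for Tgtp1, 1.22 for Gbp8, 1.13 for Irgm2, 1.01 for Gbp5 and 0.78 for Gvin1. The 5 samples of Gm12250 were all of DBA/2 mice after week 0, so that 2.80 is a fitted value and not a measured size. Tgtp1 has a near-identical copy, Tgtp2, and its identity is uncertain. In the interferon-γ pathway the difference was 2.28 for Ifng, 1.01 for Irf1, 0.69 for Socs1, 0.54 for Ifngr1 and -0.30 for Jak1. Among the other targets it was 2.86 for Cxcl9 (well above background in 3 of 18 samples, so not a measured size), 2.34 for Fcgr1 and -0.82 for Ciita. Among the type I interferon targets it was 2.49 for Oas1a and 2.48 for Oasl2. Groups of 1 or 2 samples allow no check of single samples as outliers.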

How the results depend on the processing

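The strain difference of Gbp2, Gbp3 and Irgm1 by their main probes kept its direction and its call under every alternative run, and the second probe of Irgm1 lost it with normexp. The normexp background correction, whose offset of 50 pulls changes of dim probes toward 0, shifted the median of all probes to -0.32 in B6 mice (from -0.08). For the strain difference it shifted the median to 0.22 (from -0.04) and called 76 probes higher and 14 lower, against 1486 and 1543. With it the number of members called fell from 8 to 5 in DBA/2 mice over week 4 and week 8, from 3 to 0 in B6 mice (2 at an unadjusted p under 0.05) and from 9 to 3 for the strain difference. The weekly calls, of 36 each, went from 33 to 14 in DBA/2 mice, from 8 to 1 in B6 mice and from 22 to 7 for the strain difference, and those of level from 24 to 9 of 45. With the slide as a block, 0 members were called by limma in B6 mice over week 4 and week 8 (3 at an unadjusted p under 0.05), and 5 of the 36 weekly changes. That fit could not estimate the week 9 changes in DBA/2 mice or the strain differences in level at week 0, week 2, week 4 and week 8. Its values for these are no check. Leaving out 1 sample at a time gave 7 to 9 calls in DBA/2 mice, 1 to 3 in B6 mice and 6 to 9 for the strain difference, 23 to 33, 7 to 9 and 17 to 23 weekly calls in the same order, and 19 to 25 of level. With 1 sample left in a group, that sample is assumed to vary like the other groups. With week 4 alone against week 0, the strain difference was called for 4 members, and with week 4 against week 2, which leaves out the week 0 samples, for 3 (upward). Both were chosen after seeing the data. In the step from week 2 to week 4 the sign turned for Igtp (-1.24), Gbp7 (-0.15), Ifi47 (-0.13), Gm12250 (-0.44), Ifit2 (-1.22), Ciita (1.02), Cd74 (0.94) and Ifngr2 (0.77); the single B6 sample at week 2 enters each. Of 6069 values of single genes under the alternatives, 5713 kept their side of the threshold (82 of them, not called, changed sign), 312 fell below it, 36 passed it and 8 reversed. The causes were not tested. The dim probe of Gbp6 allows no measured size of its changes.

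With the replicate block, 9 members were called in DBA/2 mice, 3 in B6 mice and 9 for the strain difference, with 33, 12 and 28 weekly calls and 26 of level. Deviations of samples with the same number correlated at -0.011 to 0.455 over 28 pairs of groups (median 0.080; 12 over 0.1), so the numbers were not taken to pair the samples.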
